A study of Mus musculus with 8 samples.

Results

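Liver and endoderm genes were examined in 8 mouse hearts at E10.5, mid-gestation. The 33 genes were chosen as genes of hepatoblasts and endoderm, and most were selected on their signals, which stood high in 1 heart of the series, the Dbh+/+ heart numbered 3. Of the 33, 31 had at least 1 probe set of their own on the array, 47 probe sets in all, among 12393 named genes and 22626 probe sets. The remaining members, Trf and Serpina1a, were represented only by probe sets shared with other genes.

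Hepatoblasts are the embryonic progenitors of hepatocytes and bile duct cells. They arise from foregut endoderm and move into the septum transversum mesenchyme, which lies beside the developing heart. They are known for making plasma proteins such as alpha-fetoprotein, albumin, apolipoproteins and clotting factors, under transcription factors of the HNF1, FOXA, HNF4 and C/EBP families. The visceral endoderm of the yolk sac makes many of the same proteins.

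The study compared 4 Dbh-/- hearts (KO 1 to KO 4) with 4 Dbh+/+ hearts (WT 1 to WT 4), each hybridised to its own Affymetrix array. Dopamine beta-hydroxylase, the product of Dbh, converts dopamine to noradrenaline, and Dbh-/- embryos lack that step. The hearts were matched for age and size and taken after an ultrasound check, per the labels. Strain, sex and the manner of dissection are not given in the sources used here, and the replicate numbers follow the order of deposition. A number in each sample title, left unexplained by the labels, was 570 for WT 1, 569 for WT 2, KO 1 and KO 2, and 541 for WT 3, WT 4, KO 3 and KO 4.

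Signals are MAS5 values in arbitrary linear units, and each probe set carries a call of Present, Marginal or Absent on each array. Of all probe sets, 65.4% to 71.7% were called Present on an array, with 70.6% in WT 3. Log intensity over log background was 1.568 in WT 3, within the range of 1.487 to 1.586 over the 8 arrays. The heart muscle genes Myh6, Tnnt2, Actc1 and Nkx2-5 were Present in every heart. The probe set for Dbh was Absent in all 8 hearts, at most 10.9, and gives no check of genotype. In RNA from a whole organ, fewer cells of a type and less RNA per cell cannot be told apart.

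The bases just upstream of 4 genes that stood high in WT 3 are shown. Liver promoters of this kind carry short motifs of the named factor families close to the start. The 4 are those with HNF1, FOXA and C/EBP matches together, and the other genes high in WT 3 had matches to fewer of these families. Ambp and Apom stood further above the other hearts than Fgb, yet Ambp held a FOXA match alone and Apom held none. Sequences are from RefSeq (GRCm38.p6), 250 bases before the start on the gene's own strand, 5′ to 3′. Capitals mark matches to GTTAAT for HNF1, to TGTTTAC or TGTTTGC or TATTTAC or TATTTGC for FOXA, and to TTGCNNAA for C/EBP, on either strand. Afp lies at chr5:90490464-90490713 (plus strand), Alb at chr5:90460620-90460869 (plus strand), Serpina1b at chr12:103738190-103738439 (minus strand) and Fgb at chr3:83049864-83050113 (minus strand). Apoh, at chr11:108395047-108395296 (plus strand), is shown beside them as a plasma protein gene that did not stand high in WT 3. Ahsg, another such gene, is not shown and held 2 FOXA matches and 1 C/EBP match, so the genes shown do not stand for a contrast in motifs.
Afp: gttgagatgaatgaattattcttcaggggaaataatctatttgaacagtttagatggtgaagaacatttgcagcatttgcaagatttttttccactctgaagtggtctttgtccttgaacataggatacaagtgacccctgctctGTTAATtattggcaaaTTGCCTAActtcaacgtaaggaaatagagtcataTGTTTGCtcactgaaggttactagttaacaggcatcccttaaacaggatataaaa
Alb: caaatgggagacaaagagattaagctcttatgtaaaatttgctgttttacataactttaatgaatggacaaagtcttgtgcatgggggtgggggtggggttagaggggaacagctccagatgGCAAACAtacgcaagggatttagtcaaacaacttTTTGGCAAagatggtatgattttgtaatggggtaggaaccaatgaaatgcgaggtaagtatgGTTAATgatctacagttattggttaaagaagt
Serpina1b: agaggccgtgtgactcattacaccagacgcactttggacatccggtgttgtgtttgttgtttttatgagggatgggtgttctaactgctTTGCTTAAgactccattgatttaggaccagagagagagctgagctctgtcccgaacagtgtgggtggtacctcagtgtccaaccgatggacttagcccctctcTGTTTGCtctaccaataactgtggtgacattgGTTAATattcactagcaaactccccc
Fgb: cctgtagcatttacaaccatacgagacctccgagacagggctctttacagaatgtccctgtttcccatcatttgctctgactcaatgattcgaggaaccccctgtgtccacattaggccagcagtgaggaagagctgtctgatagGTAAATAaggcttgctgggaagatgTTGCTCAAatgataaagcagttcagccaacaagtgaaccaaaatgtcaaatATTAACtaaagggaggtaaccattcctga
Apoh: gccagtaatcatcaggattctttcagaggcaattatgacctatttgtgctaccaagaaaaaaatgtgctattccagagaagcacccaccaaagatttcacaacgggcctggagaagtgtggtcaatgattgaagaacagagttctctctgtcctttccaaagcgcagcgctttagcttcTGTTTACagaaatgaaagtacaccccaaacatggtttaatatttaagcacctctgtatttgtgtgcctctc

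In Alb, Fgb and Serpina1b the HNF1 match lay 26, 23 and 20 bases before the start. Afp had its HNF1 match 99 bases before the start, its C/EBP match at 81 and its FOXA match at 48. The Apoh window held a FOXA match at 64 bases and no match to the other motifs. Of the 33 genes, 29 had promoters in the RefSeq table, and Apoc1, Oit3, Trf and Ttr had no entry. Among genes at least 4-fold higher in WT 3 than in any other heart (the limit used throughout, on signal + 16), 8 of 17 with a promoter held an HNF1 match, 9 held a FOXA match and 9 held a C/EBP match. Among the 11 measured genes below that limit the counts were 3, 3 and 1. Of all 32851 promoters in the table, 6.43% held an HNF1 match, 11.9% a FOXA match and 9.56% a C/EBP match. These shares are per promoter, whereas a member gene was counted if any of its promoters held a match. Several promoters were listed for 5 members, so the counts and shares are not on the same footing. The HNF4 motif CAAAGTCCA was found in none of these members and in 0.384% of all promoters. The letters TTGC belong to the FOXA motifs TGTTTGC and TATTTGC and to the C/EBP motif, so such matches can overlap. A match describes the letters of its motif only.

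WT 3 had the highest signal of the 8 hearts for 25 of the 31 measured genes, where 9.39% of all named genes were highest in that heart. For 18 of the 31 the WT 3 signal was at least 2 log2 units above the highest of the other 7 hearts on the log2(signal + 16) scale, against 0.21% of all named genes. At a limit of 1 log2 unit 23 members passed, against 0.597% of all named genes. The 18 made up 69.2% of the 26 genes past the limit in WT 3. No member passed the same limit in any of the other 7 hearts, where 0.0% or 0.00807% of all genes did. These values chose the genes, so they are descriptions and carry no test, and with 1 heart there is no replicate check.

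The excess of WT 3 over the highest other heart had a median of 2.14 log2 units over the 31 genes and of -0.41 over all named genes. F2, at 2.01, lay just inside the limit, and Serpinc1, at 1.86, lay just outside it. The median member signal was 147.8 in WT 3 and 5.35 to 12.3 in the other hearts, while the median over all genes was 73.8 in WT 3 and 51.5 to 93.1 in the others. Of the 47 member probe sets, 40 were Present in WT 3 and 8 to 20 in each other heart. Apoc2, F2, Fga and Fgb were Present in WT 3 and in no other heart, as were 1.22% of all named genes.

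**Figure D1:**
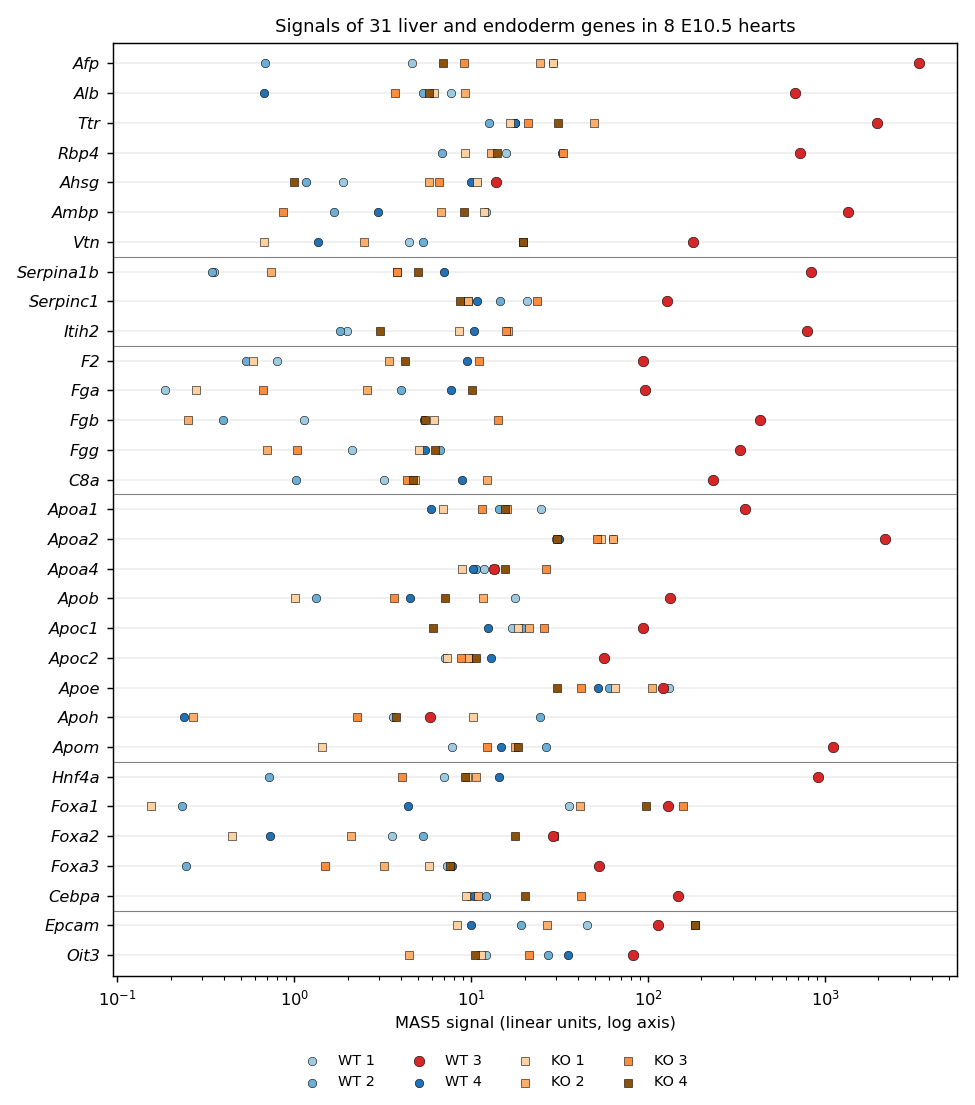
MAS5 signal (log axis, arbitrary linear units) of the brightest probe set of each of 31 liver and endoderm genes, 1 point per heart, grouped by role. The red WT 3 points lie to the right of all others for 25 genes, and the other 7 hearts are mixed by genotype.

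The plasma carrier proteins gave the widest gaps, with 6 of 7 measured genes past the limit and a median excess of 4.77. Afp encodes alpha-fetoprotein, the main plasma protein of the embryo . Its signal was 4.65 in WT 1, 0.683 in WT 2, 3396 in WT 3, 29.1 in WT 4, 28.9 in KO 1, 24.4 in KO 2, 9.11 in KO 3 and 6.90 in KO 4. WT 3 stood alone, 117-fold above WT 4, and the low signals in the other hearts were called Present in all except WT 1 and WT 2. A further pair of Afp probe sets read 3084 and 1545 in WT 3, and the remaining 2 were Absent in every heart.

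Alb, serum albumin, read 7.65 in WT 1, 5.35 in WT 2, 674.5 in WT 3, 0.671 in WT 4, 6.12 in KO 1, 9.24 in KO 2, 3.72 in KO 3 and 5.74 in KO 4. It was Present in WT 3 and KO 2 and Absent in the rest. Ttr, the thyroxine and retinol transport protein transthyretin, was Present in every heart at 17.7, 12.6, 1964 and 17.6 in WT 1 to WT 4 and 16.7, 49.1, 20.9 and 31.1 in KO 1 to KO 4. The next heart was KO 2, and all 3 Ttr probe sets had WT 3 highest.

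Rbp4, the plasma carrier of retinol, read 15.7, 6.85, 720.5 and 32.5 in WT 1 to WT 4 and 9.16, 13, 33.1 and 14.1 in KO 1 to KO 4. Ambp, the precursor of alpha-1-microglobulin and bikunin, read 12.1, 1.67, 1351 and 2.97 in the WT hearts and 11.7, 6.73, 0.859 and 9.13 in the KO hearts. Its excess of 5.61 was second to that of Afp among all named genes. Vtn, the adhesion protein vitronectin, was Present in WT 3, KO 3 and KO 4 at 179.2, 19.5 and 19.7, and Absent in the other hearts at 0.677 to 5.32.

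Ahsg, fetuin-A, did not share this pattern. Its probe set was Absent in all 8 hearts, at 13.9 in WT 3 and 1.0 to 10.8 in the others. The probe set that maps to both Trf, the iron carrier transferrin, and Srprb read 607.0 in WT 3 and 16 to 64.1 elsewhere, and which of the pair gave the signal cannot be read from it.

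Among the protease inhibitors, Serpina1b, an alpha-1-antitrypsin, read 0.350, 0.344, 829.5 and 6.98 in WT 1 to WT 4 and 3.82, 0.742, 3.78 and 4.97 in KO 1 to KO 4. The mouse Serpina1 genes are near-identical copies, so the member that gave this signal is uncertain. A pair of probe sets shared among Serpina1 copies, one of which lists Serpina1a, were also highest in WT 3, at 113.2 against at most 8.37 and at 24.2 against at most 4.30. Itih2, a heavy chain that binds bikunin, read 2.00, 1.81, 793.2 and 10.3 in the WT hearts and 8.48, 16.1, 15.7 and 3.03 in the KO hearts. Serpinc1, antithrombin, had a smaller gap at 127.9 in WT 3 and 8.68 to 23.6 in the others, and was Present in 6 of the 8 hearts.

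All 5 clotting and complement genes passed the limit, with excesses from 2.01 to 3.93. All 3 fibrinogen chains were among them. Fgb read 1.14, 0.397, 428.0 and 5.39 in WT 1 to WT 4 and 6.17, 0.250, 14.1 and 5.49 in KO 1 to KO 4. Fgg read 2.13, 6.66, 328.9 and 5.50 in the WT hearts and 5.04, 0.699, 1.04 and 6.27 in the KO hearts. Fga read 96.0 in WT 3, with at most 10.1 in any other heart. F2, prothrombin, read 92.9 in WT 3 and 0.535 to 11.1 elsewhere. C8a, a chain of the complement membrane attack complex, read 231.5 in WT 3 and 1.02 to 12.3 in the others.

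The 9 apolipoproteins were divided, with 4 past the limit and a range of excess from -0.89 to 4.79. Apoa2, a protein of high-density lipoprotein, was Present in every heart at 62.9, 30.3, 2177 and 31.3 in WT 1 to WT 4 and 54.4, 63.1, 51.7 and 30.4 in KO 1 to KO 4. Apom, a carrier of sphingosine-1-phosphate, read 7.79, 26.4, 1110 and 14.7 in the WT hearts and 1.44, 17.6, 12.3 and 18.3 in the KO hearts. Apoa1, the main protein of high-density lipoprotein, read 353.8 in WT 3 and 5.96 to 24.6 in the others, and its other 3 probe sets read 362.9 to 618.6 in WT 3. Apob, the protein of very-low-density lipoprotein, was just past the limit at 132.8 against 1.0 to 17.7.

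Apoc1 and Apoc2, small exchangeable apolipoproteins, were highest in WT 3, at 93.0 against at most 25.7 and at 56.5 against at most 12.9. On signal + 16 both gaps were less than 4-fold. Apoe, which many tissues besides liver make, was Present in all hearts at 131.7, 60.4, 121.4 and 52.0 in WT 1 to WT 4 and 65.0, 105.7, 41.8 and 30.4 in KO 1 to KO 4. WT 3 lay inside the range of the other hearts for it. Apoa4, a protein of intestinal lipoproteins, was highest in KO 3, at 26.5, and read 13.5 in WT 3. Apoh, beta-2-glycoprotein I, was Present in no heart, and read 5.84 in WT 3 and 24.3 in WT 2.

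**Figure D2:**
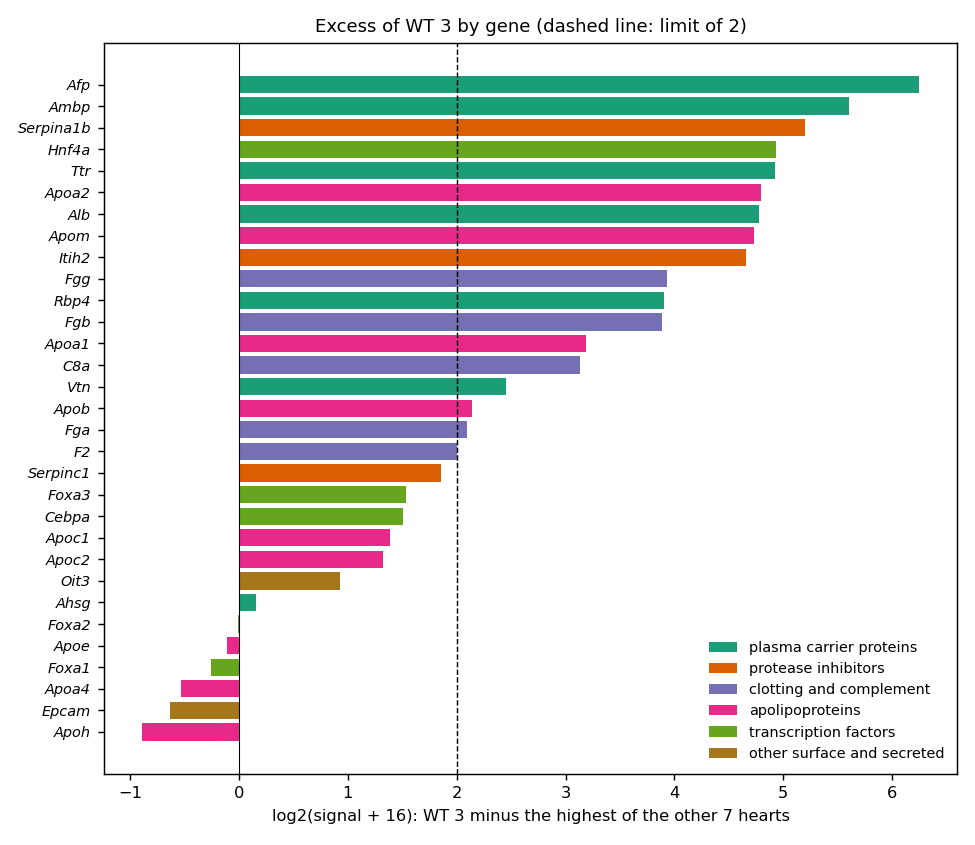
Excess of WT 3 for each gene, on the log2(signal + 16) scale, as WT 3 minus the highest of the other 7 hearts, with bars coloured by role. Bars reach past the dashed limit of 2 for 18 genes, from F2 at 2.01 to Afp at 6.24, and lie below 0 for 6 genes.

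Of the 5 transcription factors, Hnf4a alone passed the limit. Hnf4a, a nuclear receptor needed for hepatocyte gene expression, read 7.0, 0.717, 912.7 and 14.4 in WT 1 to WT 4 and 9.48, 10.7, 4.08 and 9.27 in KO 1 to KO 4 with its brightest probe set. Its probe sets disagreed, since the other 3 read 31.9 (Present), 8.51 (Marginal) and 0.528 (Absent) in WT 3. Foxa3, a FOXA factor of liver and gut, read 52.8 in WT 3 and 0.245 to 7.75 in the others. Cebpa, a C/EBP factor of hepatocytes and fat cells, read 147.8 in WT 3, 41.7 in KO 3, 20.2 in KO 4 and 9.34 to 12 in the rest.

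Foxa1 and Foxa2, pioneer factors of the endoderm as a whole, did not set WT 3 apart. Foxa1 read 35.5, 0.230, 128.9 and 4.42 in WT 1 to WT 4 and 0.155, 41.1, 157.0 and 97.1 in KO 1 to KO 4. Foxa2 read 3.56, 5.32, 29 and 0.729 in the WT hearts and 0.445, 2.08, 29.2 and 17.8 in the KO hearts. Epcam, an epithelial adhesion protein, read 44.9, 19.1, 113.0 and 9.95 in the WT hearts and 8.26, 26.9, 183.3 and 182.9 in the KO hearts. For each of these genes WT 3, KO 3 and KO 4 were the 3 highest hearts, with KO 3 the highest. Oit3, a secreted protein of hepatocytes and liver endothelium, was highest in WT 3 at 81.7, with 35.4 in WT 4 and 4.46 to 27.3 in the others.

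WT 3, KO 3 and KO 4 each stood above the other 5 hearts for 6 of the 31 members (Vtn, Apoa4, Foxa1, Foxa2, Cebpa and Epcam), against 4.49% of all named genes. The margin for Apoa4 was slight, at 13.5 in WT 3 and 13.4 in KO 2. In a list of 14 other epithelial genes the same 3 hearts stood above the other 5 for 7, namely Cdh1, Cldn6, Cldn7, Esrp1, Grhl2, Spint1 and Spint2. The splicing regulator Esrp1 read 335.7 in WT 3, 1261 in KO 3, 645.9 in KO 4 and at most 156.6 in the others. The epithelial list summed to 2789 in WT 3, 5056 in KO 3, 3210 in KO 4 and 1010 to 2048 in the other 5, with 0 of 14 genes highest in WT 3. Of the 6 members, Vtn alone was also past the limit of 2 log2 units in WT 3.

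These 3 hearts also had the lowest 5′ to 3′ signal ratios of the control transcripts. For beta-actin the ratio was 0.407 in WT 3, 0.39 in KO 3 and 0.401 in KO 4, and 0.483 to 0.527 in the others. For Gapdh it was 0.694, 0.686 and 0.702, and 0.724 to 0.775 in the others. The erythroid genes Alas2, Ermap, Gata1 and Klf1, 4 of 10 in their list, were likewise higher in these 3 hearts than in the other 5. The part of these measures in the result was not tested. All 3 hearts carried title number 541, as did WT 4, in which Foxa1 and Epcam were low.

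**Figure D3:**
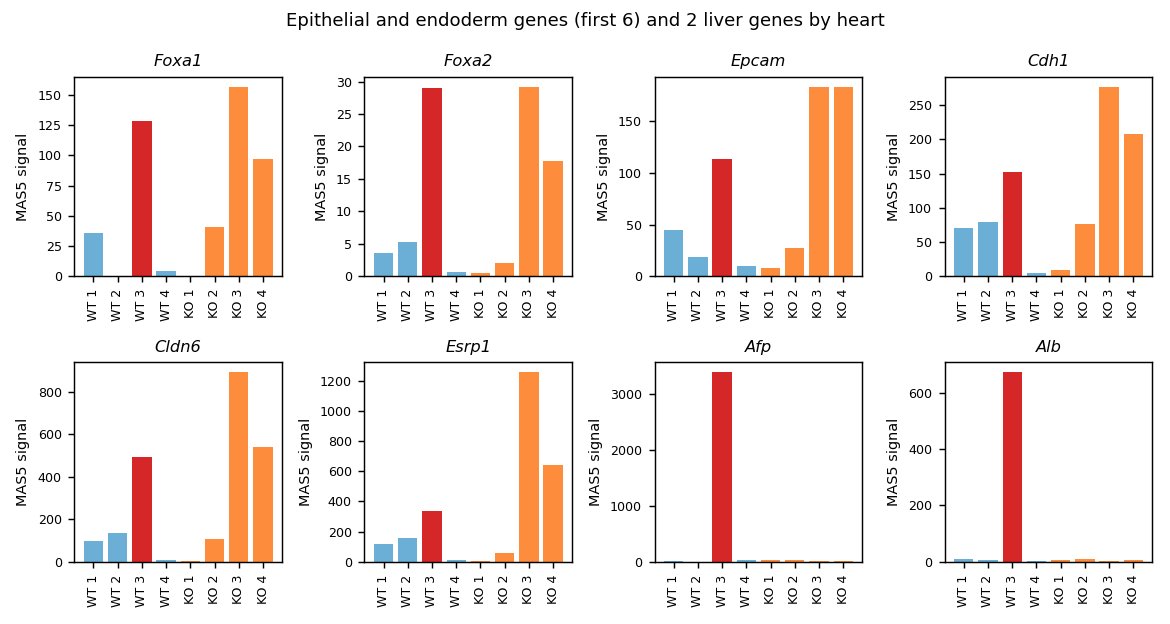
MAS5 signal (linear axis, arbitrary units) by heart for Foxa1, Foxa2, Epcam and the epithelial genes Cdh1, Cldn6 and Esrp1, and for Afp and Alb. The first 6 are higher in WT 3, KO 3 and KO 4 than in the other hearts, while Afp and Alb are high in WT 3 alone. Each panel has its own axis, and Foxa2 reaches only 29.2.

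Lists of other liver genes and of neighbouring cell types were read in the same way, with the same limit of 2 log2 units. Of 46 other liver plasma proteins on the array, 3 passed in WT 3. Serpina6, the corticosteroid carrier, read 730.7 in WT 3 and at most 7.96 elsewhere. Igfbp1, an insulin-like growth factor binding protein, read 842.0 against at most 28.2, and Serpinf2, the plasmin inhibitor, 278.7 against at most 8.81. Kng1, kininogen, was below the limit with an excess of 1.70, and 15 of the 46 were Absent in all hearts.

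None of 12 other hepatoblast regulators and markers passed, and WT 3 was highest for 6 of them, with a median excess of -0.06. The hepatoblast markers Afp, Alb, Ttr and Hnf4a, which did pass, were counted among the members and not in this list. Dlk1, a surface protein of hepatoblasts and many other embryonic cells, read 983.0 in WT 3 and 60.9 to 312.0 in the others. Hhex, a homeobox factor of liver bud and endothelium, read 557.2 against 128.9 to 260.3, and the nuclear receptor Nr5a2 read 111.1 against 7.79 to 23.8. Prox1, which acts in hepatoblast migration and is also made in heart, read 31.9 in WT 3, level with 31.5 in WT 2. Others were not highest in WT 3. Tbx3 read 795.3 in WT 3 and 1492 in KO 3, Nr0b2 read 10.1 in WT 3 and 36.7 in WT 1, and Nr1h4 was Absent in every heart. None of 31 liver metabolism genes passed, with Bhmt, a methyltransferase of homocysteine, the furthest apart at 103.9 against at most 33.1.

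No gene of the lists for other endoderm passed the limit in WT 3. Of 8 visceral endoderm genes of the yolk sac 0 passed, their sum was 498.5 in WT 3 and 429.9 to 916.7 in the others, and 6 were Present in at least 1 heart. Among its defining markers Amn and Slc39a4 were Absent in every heart. Cubn was Present in 6 hearts, WT 3 among them, and Lrp2 and Cited1 in all 8. Afp, Ttr, Rbp4 and Hnf4a also mark visceral endoderm, but were counted among the members and not in this list, and they passed the limit. Apoa4, a further marker counted among the members, did not pass. In the foregut and lung list 0 of 10 were highest in WT 3, and 5 were Present in at least 1 heart. Nkx2-1 and Sftpc were Absent in every heart, while Irx2 and Id2 were Present in all 8, Pax9 in 6 with WT 3 among them, and Sox2 in 4. In the pancreas and gut list Sox17, which endothelium also makes, was highest in WT 3 at 153.9 against at most 106.2, and 5 of 10 genes, Ptf1a among them, were Absent in every heart. In the septum transversum and epicardium list the liver mesenchyme factor Lhx2 read 44.4 in WT 3 and at most 11.3 elsewhere, and Wt1 lay inside the range of the other hearts at 544.

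The heart muscle list was low in WT 3. Its 10 genes summed to 23339 in WT 3 and 26584 to 48533 in the others, and 5 of 10 (Myh7, Myl2, Myl3, Nkx2-5 and Tnni3) were lowest in WT 3, against 7.96% of all named genes. Myh7, a myosin heavy chain of ventricular muscle, read 305.9 in WT 3 and 2431 to 4836 in the others. Myl2, a light chain of ventricular muscle, read 1728 against 4819 to 7158. Myh7 and Myl2 were named after their values were seen. In contrast Myh6 read 3577 in WT 3, above the 2029 of KO 4. The part of muscle content in the liver gene signals was not tested.

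**Figure D4:**
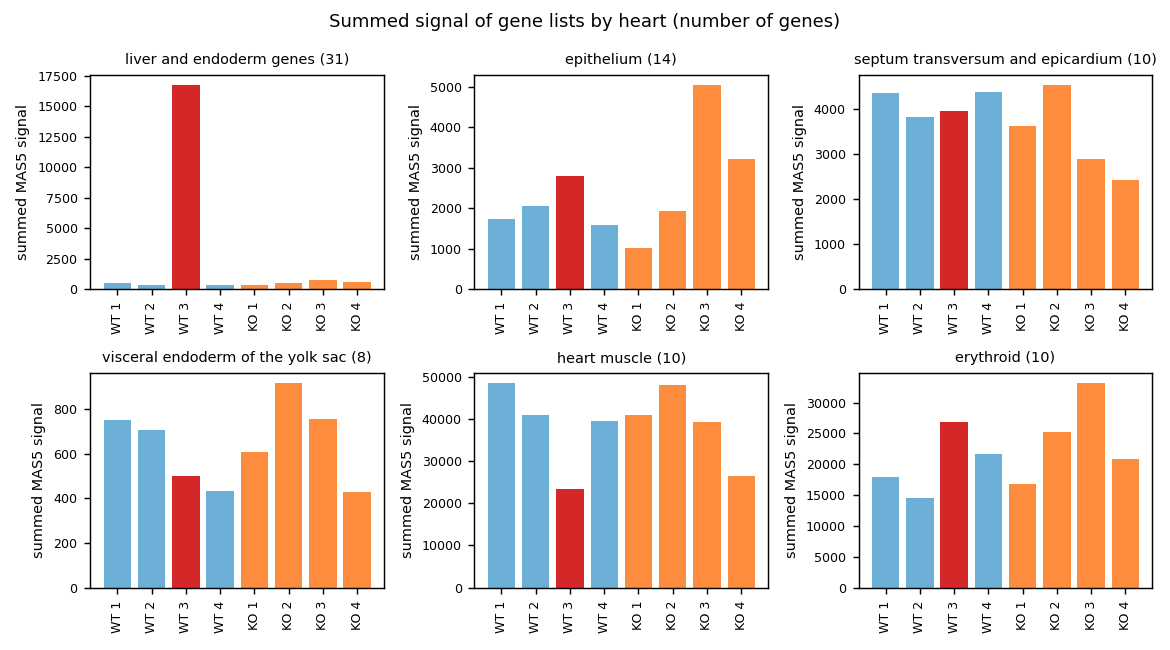
Summed MAS5 signal (linear axis, arbitrary units) of the brightest probe sets of each gene list, by heart, with the number of genes in each panel title. The 31 liver and endoderm genes sum to 16757 in WT 3 and 325.1 to 790.1 in the other hearts, whereas the heart muscle sum is lowest in WT 3.

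The genotype comparison, KO minus WT, was fitted with limma on log2(signal + 16) over all 22626 probe sets. With all 8 hearts, 27 of the 31 genes were lower and 4 higher in KO, with a median difference of -0.76 log2 units against 0.01 over all probe sets. None of the 47 member probe sets had an adjusted p below 0.05, nor did any other probe set (0.0%), while 448 of all probe sets and 1 of the 31 genes had an unadjusted p below 0.05. The authors' deposited table gives a p below 0.05 to 281 of all 22626 probe sets and to 0 of the 47 member probe sets. With so few among all probe sets, the 0 does not set the members apart. WT 3 enters this comparison and chose the genes, so nothing is read from it.

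Without WT 3 the median difference over the 31 genes was 0.10 log2 units, 12 being lower and 19 higher in KO, against a median of 0.02 over all probe sets. No member probe set passed an adjusted p of 0.05 in limma, and 1 of all 22626 did (0.00442%), which was Lancl2 at 2.19 ± 0.39 (SE). The left-out WT 3 read 792.5 for Lancl2, inside the range of the KO hearts at 316.6 to 890.7. After quantile normalization the fit without WT 3 called 0 probe sets, so the Lancl2 call was lost, with 1096 at an unadjusted p below 0.05. For Afp the mean signal was 11.5 ± 15.4 (SD, n = 3) in WT and 17.3 ± 10.9 (SD, n = 4) in KO, and the difference moved from -1.42 ± 1.0 to 0.36 ± 0.27 log2 units (SE). For Alb it moved from -1.15 ± 0.71 to 0.12 ± 0.18, and for Hnf4a from -1.24 ± 0.75 to 0.09 ± 0.20. The median SE over the 31 genes fell from 0.52 to 0.22.

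Foxa1, Epcam and Oit3, 3 of the 31 genes, had unadjusted limma p-values below 0.05 without WT 3. In the same fit 809 of all 22626 probe sets did. After quantile normalization the unadjusted p without WT 3 was 0.081 for Foxa1, 0.142 for Epcam and 0.04 for Oit3 in limma. Without that normalization Foxa1 was 1.34 ± 0.42 log2 units (SE) higher in KO, with an adjusted p of 0.686 in limma, and its groups overlapped. Among hearts of title number 541 it read 4.42 in WT 4 and 157.0 and 97.1 in KO 3 and KO 4, and among those of 569 it read 0.230 in WT 2 and 0.155 and 41.1 in KO 1 and KO 2. The fit without WT 3 was also limited to probe sets Present in at least 3 hearts, an alternative added after the data were seen. The Present calls of WT 3 still counted in that filter. Foxa1 then passed with an adjusted p of 0.00173 in limma, and was the single member probe set among 72 of 16292 called (0.442%). With that filter limma set every probe set's variance to the fitted trend, so the spread of Foxa1 between hearts did not enter its p.

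The difference of Epcam was 1.07 ± 0.44 log2 units (SE), with means of 24.6 ± 18.1 (SD, n = 3) in WT and 100.3 ± 95.9 (SD, n = 4) in KO. Its KO hearts lay in separate ranges, since KO 3 and KO 4 read 183.3 and 182.9 and KO 1 and KO 2 read 8.26 and 26.9. Oit3 was lower in KO, with a difference of -0.54 ± 0.26 log2 units (SE) and means of 25 ± 11.8 (SD, n = 3) and 11.9 ± 6.94 (SD, n = 4). The groups overlapped for Oit3 too, at 12.2 in WT 1 and 21.2 in KO 3.

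**Figure D5:**
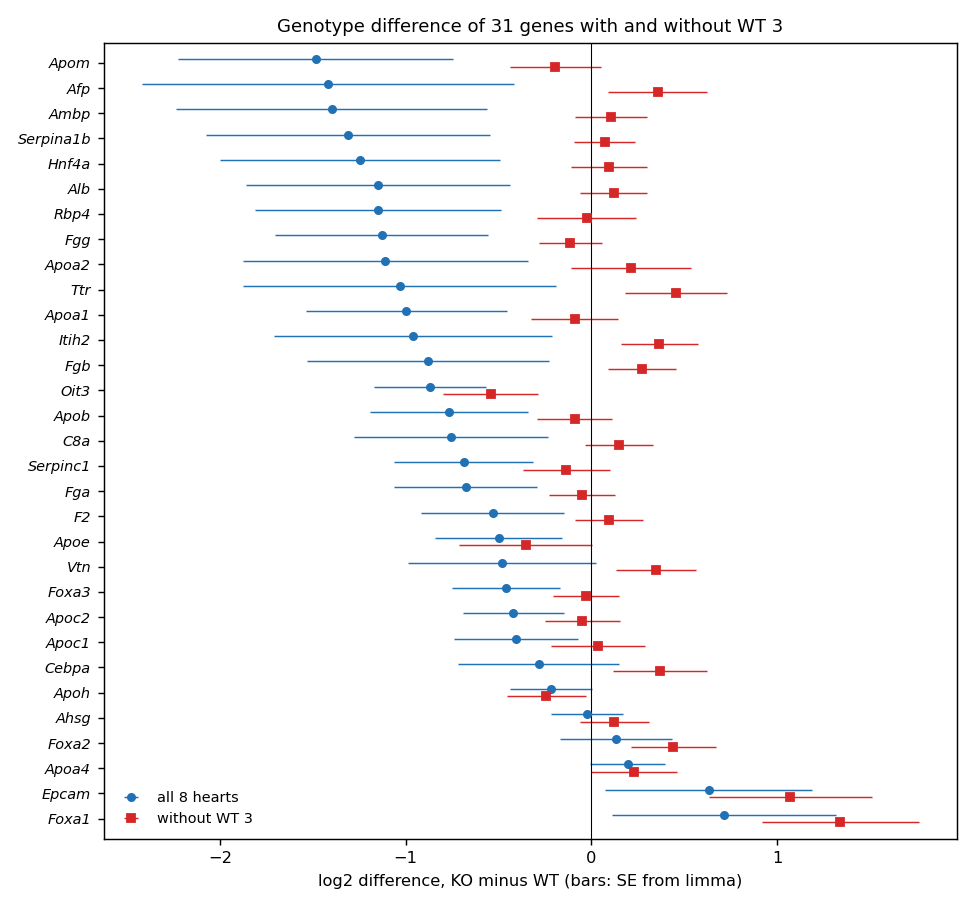
Difference of KO minus WT for each gene on the log2(signal + 16) scale, with limma standard errors as bars, for all 8 hearts (circles) and without WT 3 (squares). Genes such as Afp, Alb and Hnf4a sit below 0 with all hearts and within 0.4 of 0 without WT 3, and Foxa1 lies farthest right at 1.34.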

How the data were processed

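RNA from 8 single hearts was measured on 1 array each. Per the file headers, the deposited intensity of a probe set is its MAS5 signal, not log-transformed. Software version, array scaling and genome build are not given in the sources used here. Detection calls, with a detection p-value for each probe set and array, were deposited beside the signals, per the file headers. The p-value per probe set in the authors' deposited table comes from a Student test on the intensities, per its legend. The array laboratory's deposited report gives the fraction of probe sets Present, background intensity and the 5′ to 3′ ratio of control transcripts, per the file headers.

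The members and the gene lists were chosen with earlier results of these data known. Gene names came from the platform annotation. It gave 1 symbol for 20393 of 22690, more than 1 for 691 and no symbol for 1606, and 64 controls were left out. Each gene was read from the probe set with the highest average of log2(signal + 16), the pseudocount being 16. Sums and medians over lists pool signals of different probe sets, and probe sets of the same gene were set beside each other. Levels of different genes were not otherwise compared.

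Genotypes were compared with limma (version 3.58.1, R 4.3.3), lmFit and eBayes with an intensity trend, with no detection filter and Benjamini-Hochberg adjustment over all probe sets. The fit was tested on simulated data. With 4 hearts per group the number of arrays limits the precision. Nothing in the labels says whether hearts came from separate litters. The alternatives were scaling, pseudocounts, probe set choice, a detection filter, title number as a block and leaving out each heart.

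Genes named outside the members were, per list, up to 4 with the largest excess in WT 3 and up to 2 defining markers at the floor, the 15 others with the largest excess, and the heart check genes and Dbh. Other genes named were chosen after their values were seen. Promoter sequences are from RefSeq, GRCm38.p6.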

Additional observations from a re-analysis of the deposited data

Results flagged for a closer look

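A heart was flagged where its gap to the nearest heart of its genotype, divided by the range of the 4 hearts on the log2(signal + 16) scale, exceeded Dixon's 95% critical value. Among WT hearts, 14 of the 31 genes had a heart flagged, against 7.29% of all named genes, where chance flags about 1 in 20 groups. For all 14 the flag was WT 3 as high, while the 7.29% counts a flag of any WT heart. The share of the range was 0.961 for Ttr, 0.952 for Cebpa, 0.924 for Fgg, 0.919 for Fgb, 0.915 for Vtn, 0.914 for Serpina1b and 0.906 for Alb. It was 0.898 for Itih2, 0.894 for Ambp, 0.862 for Apoa2, 0.859 for C8a, 0.851 for Hnf4a, 0.85 for Apom and 0.835 for Apoc1. WT 3 is the heart that chose these genes, so these gaps are no independent support. Afp, with the widest gap to all hearts, was not flagged, since its other WT signals ran from 0.683 to 29.1.

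Among KO hearts, 2 of the 31 genes were flagged, against 3.87% of all named genes. Serpinc1 was high in KO 3, at 23.6 against 8.68 to 9.63 in the other KO hearts, a share of 0.921. C8a was high in KO 2, at 12.3 against 4.31 to 4.79, a share of 0.93. Both signals were far below those of WT 3, at 127.9 and 231.5.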

How the results depend on the processing

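The count of 18 genes past the limit in WT 3 was 13 with a pseudocount of 64, 21 with a pseudocount of 1, 17 after quantile normalization or median centring, and 18 to 19 when each other heart was left out. It was 17 with the median over a gene's probe sets, 16 with the dimmest probe set, 23 at a limit of 1 log2 unit and 14 at a limit of 3. Counting instead genes Present in WT 3 and in no other heart gave 4. Alb, Ambp, Apoa1, Apoa2, Apom, Fgb, Fgg, Itih2, Rbp4, Serpina1b and Ttr, 11 in all, stayed past the limit of 2 under every scaling, pseudocount, probe set and left-out heart tried. With the dimmest probe set the excess turned to -0.81 for Afp and -0.12 for Hnf4a, both probe sets being Absent in every heart. No other excess changed sign once called.

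The genotype fit called 0 probe sets with all hearts and 0 to 1 when each heart was left out, the 1 being without WT 3, and 0 member probe sets in each of those fits. The median member difference ran from -0.98 to 0.10 over the left-out hearts, with only the fit without WT 3 above 0. Without WT 3 it was 0.075 after quantile normalization, where no probe set was called (smallest adjusted p 0.883 in limma). It was 0.18 among probe sets Present in at least 3 of all 8 hearts, a setting chosen after the data were seen. That setting called 72 probe sets, 1 of them a member (Foxa1), of the 18 members it kept. Vtn, Foxa2, Cebpa, C8a, Apoa1 and Apoc1 were kept only through their Present call in WT 3, the heart that chose the members. The value of 0.18 therefore rests in part on WT 3. With title number as a replicate block 11 of 22626 probe sets were called, 0 of them members, and with the block and quantile normalization together limma called 0, the smallest adjusted p being 0.948. Deviations from the genotype mean, over all probe sets, were correlated between hearts of different genotype. The correlations ran from -0.221 to 0.364 over 6 pairs of the same number, against -0.437 to 0.384 over 10 pairs of other numbers. These ranges overlap, so they cannot decide whether same-numbered hearts deviated together. Signals near background limit these results, since 18 of the 31 genes were Present in at least 3 hearts.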

Other observations

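Past the limit of 2 log2 units in WT 3 were 26 named genes, of which 18 were members and 3 were in the list of other liver plasma proteins. The remaining genes were Mmd2, Hoxd9, Slc2a2, Ugt2b34 and St8sia3. Slc2a2, the glucose transporter of hepatocytes and pancreatic beta cells, read 186.5 in WT 3 and at most 12.2 elsewhere. Ugt2b34, a glucuronosyltransferase, read 105.3 against at most 4.24. Hoxd9, a homeobox factor of the posterior body and limbs, read 269.1 in WT 3 and 0.480 to 10.8 in the others, Present in WT 3 and in no other heart. Mmd2 read 318.5 against at most 14.9, and the sialyltransferase St8sia3 read 212.0 against at most 34.5.

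Just below the limit were Afm, a vitamin E carrier in plasma, at 79.5 against at most 9.21, and Lect2, a protein secreted by hepatocytes, at 82.4 against at most 11.7. Klb, a co-receptor for fibroblast growth factors, read 85.5 against at most 15. Gulo, the last enzyme of vitamin C synthesis, read 44.0 against at most 2.46. Mmp19, a matrix metalloproteinase, was Present in every heart and read 141.1 in WT 3 against 12.4 to 26.6 in the others. The rank of each by its excess is a description of 1 heart without a replicate.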
